A study of Mus musculus with 8 samples.

Results

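The genes of chemokines and of their receptors were followed in whole ovaries taken on postnatal day 4 (PND4) from mice in which Nr5a2, the gene of the nuclear receptor LRH-1, was to be deleted in the somatic cells of the ovary. The set holds each gene whose official mouse symbol starts with Ccl, Ccr, Cxcl, Cxcr, Ackr, Xcl or Xcr and a number, together with Cx3cl1 and Cx3cr1. It comes to 63 of the 24823 genes of the count table, 40 ligands and 23 receptors, and 4 of the receptors are atypical ones. The mutant mice (cKO) were Nr5a2 f/f, Amhr2-cre Tg/+ and their littermates (CON) were Nr5a2 f/f, Amhr2-cre +/+, so both genotypes carried the floxed alleles and the CON mice lacked the Cre recombinase. All were on the C57BL/6 background. The Amhr2 promoter is active in granulosa cells and in other somatic cells of the ovary and its surface, and the recombination removes exons 4 and 5 of Nr5a2. RNA was sequenced in 4 libraries of each genotype, and libraries are called cKO 1 to cKO 4 and CON 1 to CON 4 after the columns of the table. Each genotype was represented by 4 animals, which comes to 1 animal per library.

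The libraries held 14649243 to 29066847 reads assigned to genes, so that 3 counts equal 0.105 to 0.207 CPM, the unit used here (counts per 1000000 assigned reads after TMM scaling). The gene count of Nr5a2 was 31.0, 23.1, 27.9 and 27.8 CPM in the libraries labelled cKO and 18.4, 16.3, 15.0 and 12.2 CPM in the libraries labelled CON, which is higher, not lower, in cKO (log2 fold change 0.82, SE 0.13, edgeR adjusted p = 0.0128). The count sums all exons, among them those outside the deletion, so it does not check the deletion or the labels. Each direction given for cKO below therefore refers to the libraries labelled so. The tissue was a mixture of cells: in bulk RNA, fewer cells of a type and less RNA per cell cannot be told apart.

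Chemokines are small secreted proteins that bind G protein-coupled receptors and guide the movement of leukocytes and, in development, of germ cells and vessels. They are grouped by the spacing of their first cysteines into the CC, CXC, XC and CX3C families, and most receptors read several ligands of 1 family. Homeostatic chemokines such as Cxcl12 are made all the time by stroma, whereas inflammatory chemokines such as Cxcl1, Cxcl10 and Ccl2 are induced by cytokines, interferon or tissue stress. Atypical receptors bind chemokines without G protein signalling and take them up or pass them on. In the ovary, Cxcl12 and its receptor Cxcr4 are known for the homing of primordial germ cells, and macrophages and other leukocytes live in the ovary from early life.

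The results turn on 5 genes, 3 tested ones that were lower in every library labelled cKO (Cxcl14, Cxcr4 and Ackr3) and 2 inflammatory ligands with uneven levels (Cxcl10 and Cxcl1). Of all genes tested, 9.1% had no overlap and were lower, and Ackr3 did not pass the adjusted p with edgeR. The promoters of the 5 genes are shown because this is where nuclear receptors and inflammatory factors can act. Each runs 5′ to 3′ on the gene's strand over 300 bases, 250 before and 50 after the RefSeq start (build GRCm38.p6). Capitals mark matches to the motifs named after the sequences. The windows are chr13:56296502-56296801 (minus strand) for Cxcl14, chr1:128592250-128592549 (minus strand) for Cxcr4, chr1:90203730-90204029 (plus strand) for Ackr3, chr5:92348840-92349139 (minus strand) for Cxcl10 and chr5:90890995-90891294 (plus strand) for Cxcl1.
Cxcl14: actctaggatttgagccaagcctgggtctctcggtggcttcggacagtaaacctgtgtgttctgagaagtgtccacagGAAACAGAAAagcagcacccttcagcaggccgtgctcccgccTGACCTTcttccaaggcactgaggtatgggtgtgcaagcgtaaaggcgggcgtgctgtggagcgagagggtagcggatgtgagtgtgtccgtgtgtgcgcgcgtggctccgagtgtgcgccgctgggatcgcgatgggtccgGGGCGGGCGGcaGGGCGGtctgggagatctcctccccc
Cxcr4: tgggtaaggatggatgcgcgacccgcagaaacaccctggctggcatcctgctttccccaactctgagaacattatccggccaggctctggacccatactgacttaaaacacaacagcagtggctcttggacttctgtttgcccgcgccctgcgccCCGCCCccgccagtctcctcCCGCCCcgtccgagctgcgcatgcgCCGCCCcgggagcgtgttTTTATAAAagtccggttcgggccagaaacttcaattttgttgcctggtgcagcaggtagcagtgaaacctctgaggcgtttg
Ackr3: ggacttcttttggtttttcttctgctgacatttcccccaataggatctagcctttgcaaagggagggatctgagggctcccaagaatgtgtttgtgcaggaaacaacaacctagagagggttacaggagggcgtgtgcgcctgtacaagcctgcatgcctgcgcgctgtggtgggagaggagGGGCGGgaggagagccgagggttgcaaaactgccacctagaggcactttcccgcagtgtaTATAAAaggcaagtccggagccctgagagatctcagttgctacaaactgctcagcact
Cxcl10: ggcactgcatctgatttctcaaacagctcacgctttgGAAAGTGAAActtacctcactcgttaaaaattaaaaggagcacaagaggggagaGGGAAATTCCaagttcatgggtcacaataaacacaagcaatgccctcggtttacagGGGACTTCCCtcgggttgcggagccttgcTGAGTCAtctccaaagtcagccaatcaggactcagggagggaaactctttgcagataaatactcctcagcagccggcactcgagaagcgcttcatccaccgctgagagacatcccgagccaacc
Cxcl1: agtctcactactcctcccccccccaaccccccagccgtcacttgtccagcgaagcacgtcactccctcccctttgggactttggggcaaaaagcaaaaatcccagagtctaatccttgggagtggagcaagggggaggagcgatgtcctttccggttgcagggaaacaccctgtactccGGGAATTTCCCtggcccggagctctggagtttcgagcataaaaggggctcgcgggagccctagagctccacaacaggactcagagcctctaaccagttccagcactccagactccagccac
The motifs were searched on both strands. They were the half-site AAGGTCA that LRH-1 and the related SF-1 bind, the TATA box letters TATAAA, the letters TGANTCA bound by AP-1 (Fos and Jun), the interferon-stimulated element (GAAA, 2 bases of any kind and GAAA), the NF-kappaB consensus, and the GC box GGGCGG. The Cxcl14 window held 1 AAGGTCA, in reverse orientation at 130 to 124 bases before the start used, 1 interferon-stimulated element and 3 GC boxes, of which a pair overlapped. That start lies inside the span of Cxcl14, which reaches 56296811 at its 5′ end, so the whole window lies within the gene. For the other 4 genes the start used is the 5′ end of the span. AAGGTCA occurred in none of the other 4 windows shown and in 4.72% of all 32851 RefSeq promoter windows of this length. The Cxcr4 window held 3 GC boxes in reverse orientation and a TATA box on both strands with overlapping matches, and the Ackr3 window 1 GC box and 1 TATA box. The Cxcl10 window held 1 AP-1 site, 1 interferon-stimulated element and 2 NF-kappaB matches, and the Cxcl1 window held overlapping NF-kappaB matches on both strands, 71 to 61 bases before the start. Over all windows, the TATA box occurred in 13.6%, the AP-1 letters in 7.81%, the interferon-stimulated element in 3.44%, the NF-kappaB consensus in 4.51% and the GC box in 35.7%. Windows were found for 47 of the 63 genes. AAGGTCA occurred in those of 5 genes (10.6%), the TATA box in those of 15 (31.9%) and the AP-1 letters in those of 9 (19.1%). The interferon-stimulated element occurred in those of 3 (6.38%), the NF-kappaB consensus in those of 10 (21.3%) and the GC box in those of 10 (21.3%). A gene was counted if any of its windows held the motif, whereas the shares over all windows are per window, so the measures differ. A match describes letters and not binding.

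How much chemokine RNA the PND4 ovary held, and from which genes, was asked first. Most of it came from few genes: of 76621 counts over the set in the 8 libraries, 52.4% belonged to Cxcl12 and 7.3% to Cxcl14. The filter on low counts left 28 members for testing, 18 ligands and 10 receptors. Of the other 35, 9 had 0 counts in every library, 7 had 1 to 9 counts in all libraries together and 19 had 10 or more. The members at 0 were the ligands Ccl20, Ccl21a, Ccl21b, Ccl21c, Ccl21d, Ccl26, Ccl27b and Cxcl11 and the receptor Cxcr6. A count of 0 is no sign of absence for the Ccl21 genes and Ccl27b, since all of the 100-base stretches of Ccl21b, 50.3% of those of Ccl21a and 97.9% of those of Ccl27b also occur in other genes and such reads may not be counted. Cxcl11 is a pseudogene in the C57BL/6J reference. For the members with their own sequence, 0 counts allow a level of up to 3 counts, 0.105 to 0.207 CPM by library (counting error only).

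Levels of different genes were compared as CPM per kilobase of exon (mean ± SD, n = 4 each). Cxcl12, the homeostatic ligand of Cxcr4 and Ackr3, was highest in both genotypes, with 29.6 ± 5.34 in cKO and 31.7 ± 2.39 in CON. Cxcl14, a homeostatic ligand of epithelia and stroma, followed with 9.82 ± 3.17 in cKO against 27.5 ± 3.49 in CON. Among receptors, Cxcr4 had 8.02 ± 0.796 in cKO and 11.9 ± 0.766 in CON, Ackr3 8.79 ± 0.648 in cKO and 10.9 ± 1.22 in CON, and Cx3cr1, the fractalkine receptor of macrophages, 7.44 ± 1.89 in cKO and 6.42 ± 0.734 in CON. Cxcl13, the B cell attractant, had 8.85 in cKO and 8.83 in CON, and the transmembrane ligand Cx3cl1 6.94 in cKO and 6.65 in CON. The inflammatory ligand Cxcl10 lay far below these, at 1.09 ± 0.289 in cKO and 0.223 ± 0.355 in CON.

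**Figure D1:**
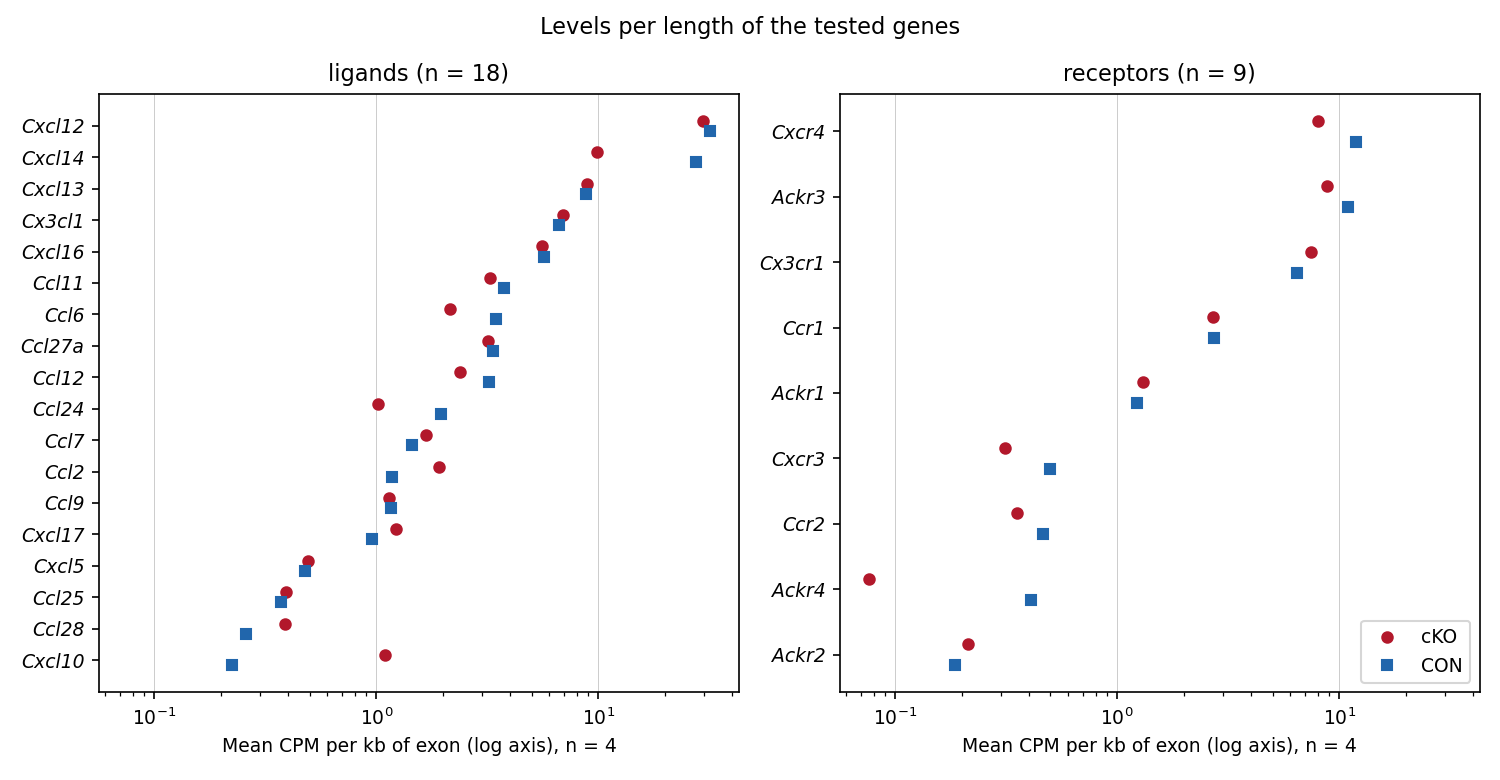
Mean level of the 18 tested ligands and 9 of the 10 tested receptors in CPM per kilobase of exon (log axis, n = 4 libraries per genotype; red circles, cKO; blue squares, CON; genes ordered by the CON mean). Cxcl12 and Cxcl14 lead the ligands and Cxcr4, Ackr3 and Cx3cr1 the receptors, and the symbols of the genotypes lie farthest apart for Cxcl14, Cxcl10 and Ackr4.

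The study set cKO against CON ovaries to find genes that respond to the loss of LRH-1. In the libraries labelled cKO, 1 of the 28 tested members, the ligand Cxcl14, fell by at least 1.5-fold with an adjusted p under 0.05, and none rose (edgeR quasi-likelihood test, p adjusted over 15257 genes). Over all genes tested, 0.518% were called lower and 0.891% higher in cKO by this rule. By the adjusted p alone, 2 members fell, Cxcl14 and the receptor Cxcr4, and none rose, where 3.28% of all genes fell and 3.64% rose. DESeq2 with both thresholds called Cxcl14 lower (1.04% of its 14360 genes) and Cxcl10 higher (1.73% of its genes). At an unadjusted p under 0.05, 4 members were lower (Cxcl14, Cxcr4, Ackr3 and Ccl6) against 13.3% of all genes, and 3 were higher, among them Cxcl10 and Ccl28, against 15.5%. For 3 tested members every cKO library lay below every CON library, and for none above, where 9.1% of all genes had no overlap and were lower and 8.95% had none and were higher. The median log2 fold change was -0.01 over the 28 members and -0.00 over all genes tested, 15 members had a negative and 13 a positive sign, and 14 lay within 0.25 of 0. The 10 receptors had a median of -0.16 (6 negative, 4 positive) and the 18 ligands -0.01 (9 negative, 9 positive).

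**Figure D2:**
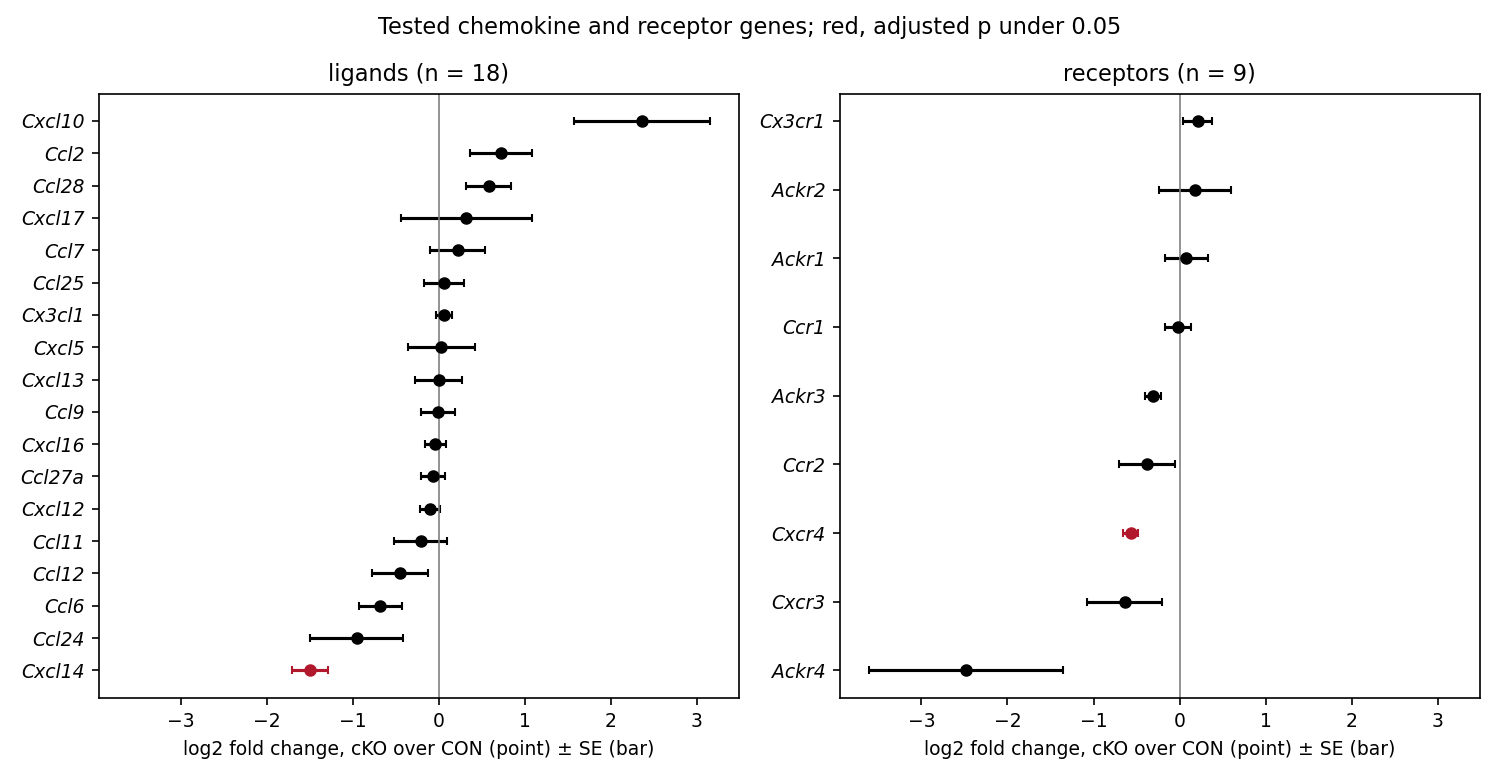
Log2 fold change of cKO over CON (points) with its standard error (bars) for the 18 ligands and 9 of the 10 receptors tested, each from 4 libraries per genotype, with red for an adjusted p under 0.05. Cxcl14 at -1.50 and Cxcr4 at -0.57 are the red points, and Ackr4 and Cxcl10 have the widest bars.

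Cxcl14 (chromosome 13, 56288643 to 56296811) encodes a chemokine that attracts monocytes and natural killer cells and for which no single signalling receptor is settled. It had 11.5, 14.6, 22.4 and 23.3 CPM in the libraries labelled cKO, against 44.4, 59.3, 49.0 and 48.3 CPM in CON. The genotypes were far apart: the highest cKO library lay below the lowest CON library, and cKO 1 and cKO 2 were the lowest. The means were 17.9 ± 5.79 CPM in cKO and 50.3 ± 6.37 CPM in CON (SD, n = 4 each), or -1.50 on the log2 scale (SE 0.21, fold 0.355, edgeR adjusted p = 0.0119). The log2 fold change was -1.15 (adjusted p = 0.0024) without both cKO 1 and cKO 2. Those libraries were also low in the 9 smooth muscle and pericyte markers, whose summed level was 975, 1328, 2437 and 3098 CPM in cKO and 2836 to 3867 CPM in CON, with no marker at 0, and the part of these cells in the result was not tested. The adjusted p was 0.0575 without CON 2 and 0.0613 without CON 3, settings in which no gene of the table was called by edgeR, and DESeq2 called Cxcl14 lower with any 1 library left out.

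Of the Cxcl12 axis, the signalling receptor Cxcr4 fell in cKO, and the atypical receptor Ackr3 and the ligand itself did not pass the edgeR test. Cxcr4 (chromosome 1, 128588199 to 128592299), which also serves T cells, endothelium and germ cells, had 15.8, 14.0, 15.5 and 12.7 CPM in the libraries labelled cKO and 22.9, 22.5, 21.3 and 19.8 CPM in CON. No library of one genotype entered the range of the other, and the spread within each was small. The means were 14.5 ± 1.44 CPM in cKO and 21.6 ± 1.38 CPM in CON (SD, n = 4 each). The difference on the log2 scale was -0.57 (SE 0.09, edgeR adjusted p = 0.0123), which is just short of the minimum fold of 1.5 (0.585 on the log2 scale). The adjusted p was 0.0610 without CON 2 and 0.0615 without CON 3. Cxcr4 is also made by lymphocytes, and the summed level of 16 T, NK and innate lymphoid cell markers was 32.2 to 39.9 CPM in cKO and 40.8 to 63.8 CPM in CON, with Ncr1 at 0. The gap came from Thy1, also made by other cells (17.5, 18.3, 18.2 and 26.2 CPM in cKO and 28.3, 49.3, 38.1 and 27.2 CPM in CON), and the other 15 markers summed to 13.7 to 17.8 CPM in cKO and 12.5 to 14.9 CPM in CON. The summed level of 9 B cell markers was 34.9 to 44.9 CPM in cKO and 43.7 to 55.8 CPM in CON, with none at 0. Endothelial cells make Cxcr4 too, and 13 blood endothelial markers summed to 577 to 755 CPM in cKO and 719 to 799 CPM in CON, with none at 0. The 12 oocyte markers summed to 946 to 1301 CPM in cKO and 615 to 947 CPM in CON, with none at 0, and 3 of them were called higher. The part of these cells in the Cxcr4 result was not tested.

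Ackr3 (chromosome 1, 90203980 to 90215724), the atypical receptor that takes up Cxcl12, had 31.8, 28.5, 30.6 and 26.9 CPM in the libraries labelled cKO and 32.5, 42.2, 35.0 and 36.0 CPM in CON. All cKO values lay below all CON values, but the gap between cKO 1 and CON 1 was narrow. Its log2 fold change of -0.31 (SE 0.09) did not pass with edgeR (adjusted p = 0.0614), and passed with DESeq2 (adjusted p = 0.0271) and without CON 1 (0.0370, edgeR). Cxcl12 (chromosome 6, 117168535 to 117181368) had 198, 212, 273 and 285 CPM in the libraries labelled cKO and 232, 270, 258 and 275 CPM in CON. The genotypes overlapped, with cKO 1 and cKO 2 below every CON library and cKO 4 above. Its log2 fold change was -0.10 (SE 0.12, adjusted p = 0.626), and 0.10 without both cKO 1 and cKO 2. The 12 stroma and mesenchyme markers had a like order, with summed levels of 28953, 27761, 38274 and 39270 CPM in cKO and 28940 to 34562 CPM in CON and none at 0, and their part was not tested.

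Within each library, 4 ratios between members were formed, which do not depend on depth, and p-values were adjusted over the 4 (Benjamini-Hochberg). Means and SDs are those of the ratios, whereas the permutation tests compared mean log2 ratios. The count of Cxcr4 over that of Ackr3 was 0.497, 0.489, 0.508 and 0.473 in the libraries labelled cKO and 0.703, 0.533, 0.607 and 0.550 in CON. All cKO ratios lay below all CON ratios (means 0.492 ± 0.0146 in cKO and 0.598 ± 0.0767 in CON, SD, n = 4 each, two-sided exact permutation test over 70 label assignments, p = 0.0286, the smallest that 4 against 4 allow, adjusted 0.0571). Cxcl14 over Cxcl12 was 0.0726 ± 0.0113 in cKO and 0.194 ± 0.0183 in CON (exact permutation p = 0.0286, adjusted 0.0571), also with no overlap. Cxcl12 over Cxcr4 was 16.9 ± 4.21 in cKO and 12.1 ± 1.54 in CON (exact permutation p = 0.0571, adjusted 0.0762). Cx3cl1 over Cx3cr1 was 0.870 ± 0.305 in cKO and 0.916 ± 0.149 in CON (exact permutation p = 0.686, adjusted 0.686).

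**Figure D3:**
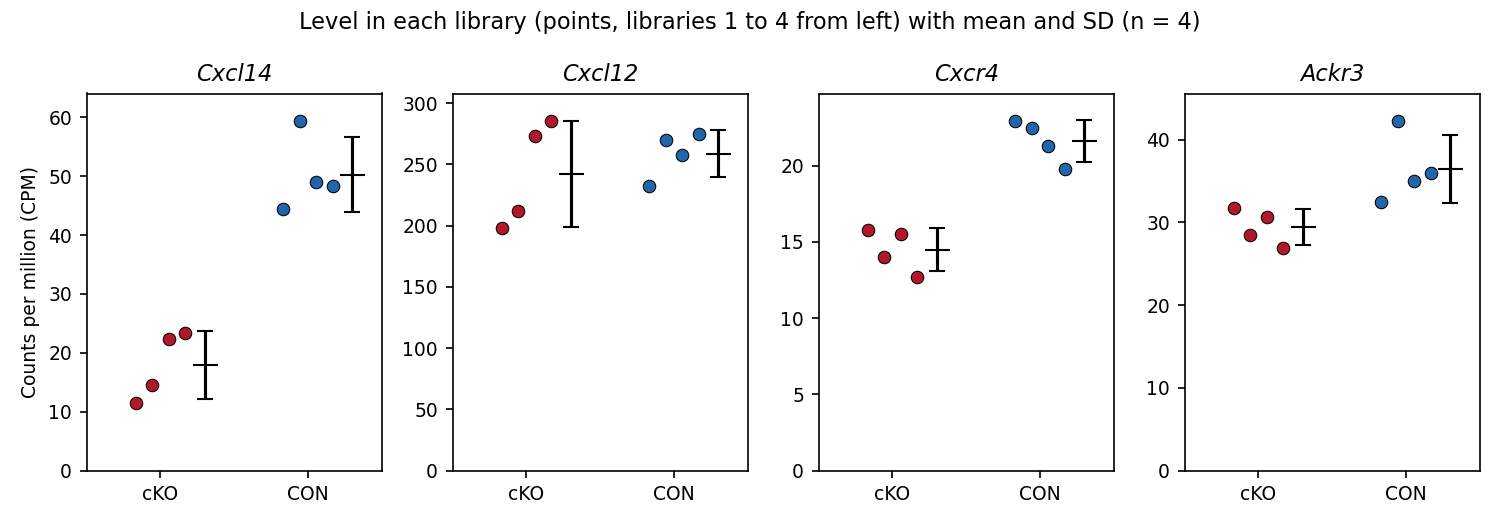
Level in CPM of Cxcl14, Cxcl12, Cxcr4 and Ackr3 in each library (points; cKO left in red, CON right in blue) with the mean and SD of 4 libraries beside them, each axis starting at 0. The genotypes do not overlap for Cxcl14, Cxcr4 and Ackr3, and overlap for Cxcl12.

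Among inflammatory CXC ligands, Cxcl10 (chromosome 5, 92346638 to 92348889), the interferon-induced attractant of T cells that express Cxcr3, had the largest positive fold change of the tested members. It had 3.01, 2.31, 1.60 and 2.90 CPM in the libraries labelled cKO (75, 37, 37 and 42 counts) and 0.104, 0.211, 1.69 and 0 CPM in CON (2, 6, 29 and 0 counts). The cKO libraries were alike, whereas CON 3 stood apart from the other CON libraries and just above cKO 3. The log2 fold change of 2.36 (SE 0.79) did not pass with edgeR (adjusted p = 0.0931), and passed with DESeq2 (2.31, 0.0441), with limma-voom (3.60, 0.0352) and, in edgeR, without both CON 1 and CON 3 (4.22, 0.0476). Without CON 3 alone it was 4.29 (0.0613) in edgeR. DESeq2 without the filter gave 2.30 and did not pass (0.162). With 1 library left out, DESeq2 called Cxcl10 only without CON 3. Cxcl9 had 9 counts in all libraries together, Cxcl11 had none, and Cxcr3, the shared receptor, had 0.241, 0.685, 0.949 and 0.276 CPM in cKO and 0.679, 0.738, 0.817 and 1.20 CPM in CON (log2 fold change -0.64, SE 0.44, adjusted p = 0.365).

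Other interferon response genes were set beside Cxcl10. Of 27 tested members of a list of 30, none was called in either direction and 1, the immune GTPase gene Iigp1, was lower by the adjusted p alone (-0.41, SE 0.09, 0.0373), beside the 3.28% of all genes that were lower by that rule. At an unadjusted p under 0.05 (edgeR), 4 of the 27 were lower and none higher, where 13.3% of all genes were lower and 15.5% higher. The median was -0.11 beside -0.00 over all genes. Isg15, a ubiquitin-like interferon product, had 1.97, 2.93, 3.06 and 2.69 CPM in cKO and 3.24, 3.41, 4.44 and 3.66 CPM in CON (log2 fold change -0.47, SE 0.19, adjusted p = 0.142). Ifit1 had 2.21, 2.24, 2.29 and 1.73 CPM in cKO and 2.14, 2.11, 2.16 and 1.72 CPM in CON. Gbp2 had 57.0, 39.6, 30.7 and 37.9 CPM in cKO and 31.1, 36.4, 38.4 and 42.6 CPM in CON. The summed level of the list was 652, 621, 650 and 623 CPM in cKO and 618 to 678 CPM in CON. The part of an interferon response in the level of Cxcl10 was not tested. Cxcl10 shares 5.91% of its exon bases with Art3 on the opposite strand, and the strand setting of the counting is not given in the sources used here. Art3 had 3.04 to 8.33 CPM in cKO and 4.44 to 14.0 CPM in CON, and was highest in CON 4, where Cxcl10 had 0 counts.

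Cxcl1 (chromosome 5, 90891245 to 90893121), a neutrophil attractant that signals through Cxcr2, was high in 1 library. It had 5.62, 0.934, 0.302 and 0.138 CPM in the libraries labelled cKO (140, 15, 7 and 2 counts) and 0.313, 0.211, 0.467 and 0.114 CPM in CON (6, 6, 8 and 2 counts). The level in cKO 1 was far above all others, cKO 2 was next, and cKO 3 and cKO 4 lay in the CON range. The low counts kept it from the test. Without the filter the log2 fold change was 2.72 (SE 1.13, edgeR adjusted p = 0.199), and DESeq2 gave 2.68 (0.0374). Cxcl2, its close relative, had 13 counts in cKO 1 and 0 to 3 in every other library, and Cxcl5, another Cxcr2 ligand, had 0.604 to 1.17 CPM in cKO and 0.515 to 1.62 CPM in CON (log2 fold change 0.03, SE 0.39).

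Immediate-early genes, which cells induce within minutes of a stimulus, had their highest summed level in cKO 1, as did Cxcl1, but not all of them followed it. Fos had 376, 82.2, 7.60 and 8.02 CPM in cKO and 4.43 to 7.90 CPM in CON. Egr1, the gene of the list with the smallest p, had 550, 185, 69.6 and 70.3 CPM in cKO and 37.5 to 45.4 CPM in CON. Its log2 fold change was 2.34 (SE 0.71, edgeR adjusted p = 0.0827). Zfp36, a destabilizer of cytokine mRNA, had 206, 51.6, 19.9 and 17.8 CPM in cKO and 17.8 to 19.3 CPM in CON. Atf3, a stress-induced transcription factor, had 26.2, 14.3, 9.88 and 26.6 CPM in cKO and at most 20.7 CPM in CON. The summed level of the immediate-early list (25 of 26 genes in the table, none of them at 0) was 3453, 1534, 1109 and 1420 CPM in cKO and 1085 to 1303 CPM in CON, and none of its 23 tested genes was called. Their median log2 fold change was 0.61, beside -0.00 over all genes. At an unadjusted p under 0.05 (edgeR), 4 of them were higher and none lower, beside 15.5% and 13.3% of all genes. The sum in cKO 4, where Cxcl1 lay in the CON range, was also above every CON library. The part of this state in the level of Cxcl1 was not tested. The list of 26 NF-kappaB and inflammatory cytokine genes held 20 tested genes, of which none was called or passed the adjusted p, with a median of -0.01. At an unadjusted p under 0.05 (edgeR), 4 were higher and none lower, where 15.5% of all genes were higher and 13.3% lower. Its summed level was also highest in cKO 1, with 955, 723, 726 and 745 CPM in cKO and 715 to 751 CPM in CON. The part of these genes in the level of Cxcl1 was not tested.

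Cxcr2 (chromosome 1, 74153994 to 74161246), the receptor of Cxcl1, Cxcl2 and Cxcl5 on neutrophils, followed different libraries. It had 0.120, 0.561, 0.475 and 0.276 CPM in the libraries labelled cKO (3, 9, 11 and 4 counts) and 4.23, 0.316, 2.74 and 0.401 CPM in CON (81, 9, 47 and 7 counts). CON 1 and CON 3 were high, and CON 2 and CON 4 lay within the cKO range. Without the filter the log2 fold change was -2.42 (SE 0.91, edgeR adjusted p = 0.153), and DESeq2 gave -2.43 (0.0262). Neutrophil genes were high in the same libraries, with S100a8 at 1.49, 2.24, 0.518 and 0.553 CPM in cKO and 28.9, 1.65, 38.7 and 2.98 CPM in CON. The 22 neutrophil markers summed to 44.6 to 53.3 CPM in cKO and 154, 45.2, 243 and 54.6 CPM in CON, with none at 0, and the 12 markers of the red blood cell lineage were high in them too, with 68.4 to 114 CPM in cKO and 238, 57.0, 152 and 75.8 CPM in CON and none at 0. The part of these cells in the level of Cxcr2 was not tested. The related receptor Cxcr1 had 2 counts in all.

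**Figure D4:**
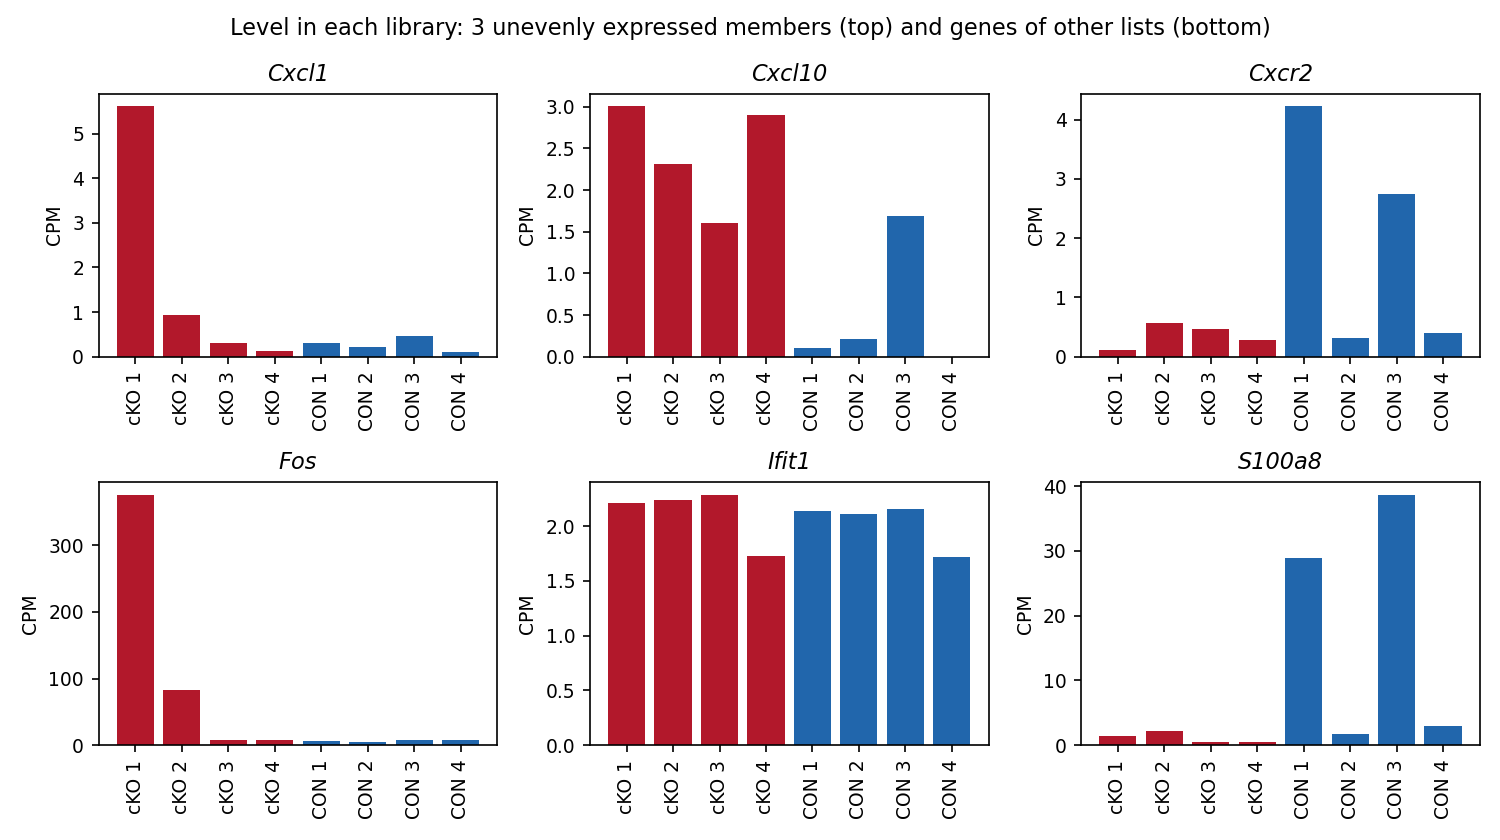
Level in CPM of Cxcl1, Cxcl10 and Cxcr2 (top) and of the immediate-early gene Fos, the interferon-induced gene Ifit1 and the neutrophil gene S100a8 (bottom) in each library (cKO in red, CON in blue; axes start at 0). Cxcl1 and Fos peak in cKO 1, and Cxcr2 and S100a8 in CON 1 and CON 3. Cxcl10 is uneven among the CON libraries, and Ifit1 is level across libraries.

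Among CC ligands and receptors, 10 ligands and 3 signalling receptors were tested, and none passed the adjusted p. Ccl6, a macrophage-derived ligand of Ccr1 in mice, had 4.98, 4.67, 2.72 and 3.04 CPM in the libraries labelled cKO and 7.11, 4.01, 7.53 and 6.24 CPM in CON. Only CON 2 lay within the cKO range, and the log2 fold change was -0.68 (SE 0.25, adjusted p = 0.116), which became -1.11 (0.0405) without both cKO 1 and cKO 2. Its receptor Ccr1, the CC receptor with the highest level per kilobase of the 3, had 7.62 ± 1.01 CPM in cKO and 7.74 ± 1.39 CPM in CON (SD, n = 4 each, log2 fold change -0.02, SE 0.15), and Ccl9, another ligand of it, had a log2 fold change of -0.01 (SE 0.20). Among ligands too low to be tested, Ccl3 had 39, Ccl4 12 and Ccl5 24 counts in all libraries together.

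The ligands of Ccr2, the receptor that draws monocytes out of the blood, did not move together. Ccl2 had 2.97, 2.55, 1.64 and 1.59 CPM in cKO and 2.35, 0.879, 0.876 and 1.26 CPM in CON (log2 fold change 0.72, SE 0.36, adjusted p = 0.216). The cKO values all lay above 3 of the CON values, and CON 1 lay among them. Ccl7 had a log2 fold change of 0.22 (SE 0.32), Ccl12 of -0.45 (SE 0.32) and Ccr2 itself of -0.38 (SE 0.33, adjusted p = 0.470). The eotaxins, ligands of the eosinophil receptor Ccr3, gave -0.21 (SE 0.31) for Ccl11 and -0.95 (SE 0.54, adjusted p = 0.271) for Ccl24, and Ccr3 had 54 counts in all. The 17 macrophage and monocyte markers summed to 382 to 492 CPM in cKO and 396 to 495 CPM in CON with none at 0, and of its 16 tested genes none was called and the lysozyme gene Lyz2 was lower by the adjusted p alone (-0.56, SE 0.14, 0.0435).

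Ccl28, a mucosal and epithelial ligand of Ccr10 and Ccr3, had 2.29, 1.68, 1.25 and 2.28 CPM in the libraries labelled cKO and 1.15, 1.30, 1.05 and 1.49 CPM in CON (log2 fold change 0.58, SE 0.26, adjusted p = 0.168). Only cKO 3 lay within the CON range. Ccl27a, which shares the receptor Ccr10, had a log2 fold change of -0.07 (SE 0.14), but 26.5% of its 100-base stretches also occur in other genes, and Ccr10 had 6 counts in all. Ccl25, the thymic and gut ligand of Ccr9, had 0.06 (SE 0.23). Ccr7, the receptor that leads dendritic cells and T cells to lymph nodes, was too low to be tested, with 0, 2, 7 and 2 counts in cKO and 6, 8, 13 and 15 counts in CON, and its ligand Ccl19 had 11 counts in all. Ccl22, a ligand of Ccr4, had 1, 3, 4 and 2 counts in cKO and 5, 9, 5 and 5 counts in CON, with no overlap, at a depth where single reads decide. The same holds for Cxcl15, with 0, 0, 0 and 1 counts in cKO and 3, 3, 3 and 2 counts in CON. Xcl1, the lymphocyte ligand of the dendritic cell receptor Xcr1, had 0 counts in every cKO library and 5 in CON.

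The fractalkine pair was among the most abundant and gave no call. Cx3cr1 (chromosome 9, 120048683 to 120068296) had 25.3, 27.0, 40.6 and 41.2 CPM in the libraries labelled cKO and 26.8, 25.4, 32.2 and 31.2 CPM in CON. The cKO libraries formed a low and a high pair, with CON between or beside them, and the log2 fold change was 0.21 (SE 0.17, adjusted p = 0.437). It was 0.50 (0.0189) without both cKO 1 and cKO 2. Cx3cl1 (chromosome 8, 94772180 to 94782427) had 31.2, 27.4, 25.6 and 24.8 CPM in cKO and 27.2, 26.5, 23.1 and 27.6 CPM in CON (log2 fold change 0.06, SE 0.09). The other transmembrane ligand, Cxcl16, had 16.8 ± 2.72 CPM in cKO and 17.2 ± 1.37 CPM in CON (log2 fold change -0.04, SE 0.12), and its receptor Cxcr6 had 0 counts. Cxcl16 shares 18.3% of its exon bases with Zmynd15 on the opposite strand, which had 1.61 to 2.46 CPM in cKO and 0.993 to 1.62 CPM in CON. Cxcl13 had 10.2 ± 2.74 CPM in cKO and 10.2 ± 3.15 CPM in CON (log2 fold change 0.00, SE 0.27), and its receptor Cxcr5 had 43 counts in all.

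Of the atypical receptors besides Ackr3, Ackr4, which scavenges Ccl19, Ccl21 and Ccl25, was irregular, with 0, 0, 0.949 and 0.691 CPM in cKO and 1.41, 6.01, 1.28 and 0.114 CPM in CON. The genotypes overlapped and CON 2 alone held most of the counts, and the log2 fold change of -2.48 (SE 1.13) did not pass (adjusted p = 0.184). It shares 8.9% of its exon bases with Acad11 on the opposite strand, which had 19.1 to 24.1 CPM in cKO and 19.1 to 21.0 CPM in CON. Ackr1, the chemokine carrier of venules and red cells, had 1.83 ± 0.440 CPM in cKO and 1.73 ± 0.352 CPM in CON, and 25.7% of its exon bases lie in Cadm3 on the same strand. Ackr2, the scavenger of inflammatory CC ligands, had 0.662 ± 0.202 CPM in cKO and 0.579 ± 0.298 CPM in CON.

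Many chemokine genes lie side by side in the genome, and neighbours were compared by cluster. Of the 11 Ccl genes on chromosome 11, 6 were tested, with log2 fold changes from -0.68 (Ccl6) to 0.72 (Ccl2). Of the 8 receptor genes in the cluster at 123767211 to 124127183 on chromosome 9, 3 were tested, among them Ccr1 at -0.02 and Ccr2 at -0.38. Other receptor genes of that chromosome, such as Cx3cr1, lie outside it. Of the 4 genes from Cxcl9 to Cxcl13 on chromosome 5, 2 were tested, Cxcl13 at 0.00 and Cxcl10 at 2.36. Cxcl13 is no close neighbour, since it starts at 95956939 and the others end by 92363296. In the cluster of that chromosome with the Cxcr2 ligands and Cxcl15, 1 of 5 was tested, Cxcl5 at 0.03. Signs were mixed within the cluster of chromosome 11, and no clustered member passed the adjusted p with edgeR on all 8 libraries. Cxcl10 passed with DESeq2 (adjusted p = 0.0441) and limma-voom (0.0352), and Cxcl1 with DESeq2 without the filter (0.0374).

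Genes that act with chemokines were read from lists, beside the shares of all genes given above (0.518% called lower, 0.891% called higher, and 3.28% lower and 3.64% higher by the adjusted p alone). Of 37 tested genes for signal transduction below chemokine receptors, none was called and 1, the leukocyte PI3-kinase gene Pik3cd, was higher by the adjusted p alone (0.46, SE 0.12, 0.0442), with a median of -0.10. Of 21 tested genes for chemokine cleavage and presentation, 1 was called lower, the neutrophil gelatinase gene Mmp9, with 1.45, 1.99, 2.68 and 3.18 CPM in cKO and 17.3, 5.59, 17.5 and 4.12 CPM in CON (log2 fold change -2.27, SE 0.51, adjusted p = 0.0389), and the heparan sulfate carrier gene Gpc1 fell by the adjusted p alone (-0.23, SE 0.06, 0.0434). Mmp9 was high in CON 1 and CON 3, as were the neutrophil and red blood cell lineage markers. Of 15 tested other chemoattractants and their receptors, 1 was called lower, Ltb4r1, the leukotriene B4 receptor of leukocytes, with 0.562, 0.436, 0.475 and 0.484 CPM in cKO and 1.25, 0.774, 1.23 and 1.09 CPM in CON (-1.11, SE 0.27, 0.0432).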

How the data were processed

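RNA of 8 whole-ovary libraries was sequenced as 100-base read pairs from a stranded mRNA kit. The authors used STAR for alignment to GRCm38 (mm10) and featureCounts for the deposited counts per gene. Versions and the strand setting are not given in the sources used here. The deposited comparison table (DESeq2 fold changes, p-values and per-million values) was not used.

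Of 24823 gene IDs, 24755 were joined to a symbol. Each column names a genotype, and none a sample title. The filterByExpr step of edgeR 4.0.16 (R 4.3.3) kept 15257 genes, which were scaled by TMM and tested with the robust quasi-likelihood F test. The call rule was a Benjamini-Hochberg adjusted p under 0.05 with a fold change of at least 1.5, and each SE was taken as the log2 fold change divided by the square root of F. P-values weigh the difference between the genotypes against the spread between these libraries. DESeq2 1.42.0, limma-voom 3.58.1, RLE scaling, other count filters and left-out libraries were alternatives. DESeq2 with left-out libraries or with no filter was added after seeing the data. Exon lengths and coordinates are those of GENCODE M21. No libraries were duplicates (smallest chi-square per gene 3.77).

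Values are given for members at an unadjusted p under 0.05 with or without the filter, those the study names, the 5 most abundant ligands and receptors, those with no overlap and partner genes. Other members and the genes beside them were added with their values known. The members and lists were chosen with earlier results of these data known. Values of 1 tested receptor are left out here.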

Additional observations from a re-analysis of the deposited data

Results flagged for a closer look

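In 3 of 38 groups of 4 libraries, 1 library lay farther from the rest than Dixon's test allows at 95%, by its gap to the nearest library over the range of the group. This is 7.89% of the groups, where chance flags about 1 in 20 groups of normally distributed values. Cxcl1 was at 5.62 CPM in cKO 1, with 0.934, 0.302 and 0.138 CPM in the other cKO libraries. Cxcl10 was at 1.69 CPM in CON 3, with 0.104, 0.211 and 0 CPM in the other CON libraries. Cxcl15 was at 0.0691 CPM in cKO 4, which is 1 count, with 0 counts in the other cKO libraries. Where the other libraries are all at 0, any count is flagged, so the flag of Cxcl15 carries no information.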

How the results depend on the processing

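No paired analysis was possible because the genotypes share no replicate numbers. Of the chemokine and receptor genes, 1 was called lower and none higher with edgeR. Lower calls numbered 0 to 2 in edgeR with 1 library left out (0 without CON 2 or CON 3, and 2, Cxcl14 and Cxcr4, without cKO 1, cKO 3 or CON 4) and 1 to 3 in DESeq2. Without both CON 1 and CON 3 there were 0 in edgeR and 1 in DESeq2 (Cxcl14), without both cKO 1 and cKO 2 there were 3 in edgeR and 3 in DESeq2 (Ccl6, Cxcl14 and Cxcr4), with no minimum fold 2, and with DESeq2 without the filter 2 (Cxcl14 and Cxcr2). Higher calls were 1 with DESeq2, with limma-voom and, in edgeR and in DESeq2, without both CON 1 and CON 3 (Cxcl10 each time). There was 1 with DESeq2 without the filter (Cxcl1), and 0 to 1 in DESeq2 with 1 library left out (Ccl2 without CON 1, Cxcl10 without CON 3).

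Over all genes, 79 were lower and 136 higher. DESeq2 gave 150 lower and 248 higher, edgeR without both CON 1 and CON 3 gave 14 and 55, without both cKO 1 and cKO 2 157 and 61, with no minimum fold 501 and 555, and with 1 library left out 0 to 105 lower and 0 to 322 higher. The 0 occurred without CON 2 (smallest adjusted p 0.0567, 1565 lower and 1749 higher at an unadjusted p under 0.05) and without CON 3 (0.0613, 1488 and 1771). The cause was not tested.

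With 1 library left out, the log2 fold change in edgeR was -1.64 to -1.33 for Cxcl14 (adjusted p 0.0102 to 0.0613) and -0.62 to -0.52 for Cxcr4 (0.0107 to 0.0615). Without both CON 1 and CON 3, the adjusted p was 0.0505 for Cxcl14 and 0.0727 for Cxcr4. Signs turned for values near 0: Cx3cl1 was -0.02 without cKO 1 and -0.06 without both cKO 1 and cKO 2, Cxcl12 was 0.10 without both, and Cxcl16 was -0.14 to 0.07 with 1 library left out (0.07 without cKO 3 and 0.00 without CON 3). Depth limits the 35 members that were not tested.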

Other observations

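Cxcl17, a mucosal chemokine-like ligand, had 1.65, 1.68, 0.345 and 0.0691 CPM in the libraries labelled cKO and 0.731, 1.41, 0.584 and 0.172 CPM in CON. Its levels spread widely in both genotypes and overlapped (log2 fold change 0.32, SE 0.76, adjusted p = 0.812). Ccl9, a macrophage ligand, had 4.58, 3.18, 3.41 and 2.76 CPM in cKO and 2.66, 3.69, 4.03 and 3.78 CPM in CON, so its highest and its next to lowest value were both in cKO.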
